A study of Arabidopsis thaliana with 8 samples.

Results

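Indole glucosinolates are sulfur-rich defence compounds that Arabidopsis builds from the amino acid tryptophan. The account below covers 8 genes of their synthesis. They are a named list of the pathway, with no cut on a measured value, but the list was chosen with earlier results of these data known. The core enzymes are CYP79B2 (AT4G39950), CYP79B3 (AT2G22330), CYP83B1 (AT4G31500), SUR1 (AT2G20610) and UGT74B1 (AT1G24100). The transcription factors are MYB34 (AT5G60890) and MYB51 (AT1G18570), and the ring-modifying enzyme is CYP81F2 (AT5G57220). All 8 were present among the 33602 genes of the deposited table, and all 8 were among the 21384 genes with enough reads to be tested. RNA of whole Arabidopsis thaliana seedlings, 7 days old and kept in 24 h light, was sequenced as 2 libraries for each of 4 genotypes. The double mutant cob-6sfr6-3 carries both alleles, cob-6 carries only the COB allele, sfr6-3 carries only the MED16 allele, and WT is Col-0. COB encodes a wall protein anchored to the outer face of the plasma membrane and needed for oriented cellulose deposition, and MED16 is part of the tail of Mediator, the complex that links transcription factors to RNA polymerase. The title of the series names MED16 as a suppressor of the COB mutant, so the comparisons ask how each allele alone affected these genes, what adding sfr6-3 to cob-6 did, and whether the effects were additive. The labels do not say how many seedlings made a library or whether the replicates were separate cultures, so p-values reflect only the spread among these libraries, and that spread may be technical.

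In the pathway, the paralogs CYP79B2 and CYP79B3 convert tryptophan to indole-3-acetaldoxime, a branch point shared with the phytoalexin camalexin. CYP83B1 oxidises the aldoxime, the product is joined to glutathione, the C-S lyase SUR1 cleaves the conjugate, UGT74B1 adds glucose and sulfotransferases finish the core structure. MYB34 and MYB51 activate these genes, and CYP81F2 hydroxylates the indole ring before methyltransferases of the IGMT family act on it.

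The labels and the libraries were checked first. COB stood at 82.5 and 70.3 CPM (counts scaled to library size) in cob-6sfr6-3, 68.3 and 66.9 in cob-6, 187 and 187 in sfr6-3, and 143 and 239 in WT, so it was lowest in the genotypes that carry cob-6. MED16 stood at 10.8 and 7.48 CPM in cob-6sfr6-3, 29.3 and 39.1 in cob-6, 8.59 and 8.45 in sfr6-3, and 24.3 and 34.5 in WT, so it was lowest in the genotypes that carry sfr6-3. The library labelled WT replicate 1 stood apart, with 324504432 gene reads against 24011199 to 37744914 in the other 7. Of 25179 genes with unique reads, 0 had fewer unique reads in it than in the other 7 libraries together, and 1178 had exactly the same number. For the 8 genes its unique reads were 1.61 times (SUR1) to 2.32 times (CYP81F2) that sum. Its unique reads are thus at least those of the other 7 added up in every gene, as they would be if it also held their reads. The labels do not say how it was made, so it cannot be counted as a WT replicate independent of the libraries it is compared with. Values against WT use it unless stated, and those the text turns on are also given without it. All 12 root markers and all 11 green tissue markers were above 0 in every library. Their summed CPM were 246.7 and 293.3 (root) and 49670 and 55810 (green) in cob-6sfr6-3, 171.7 and 214.3 and 37160 and 43270 in cob-6, 291.9 and 299.5 and 39070 and 49900 in sfr6-3, and 246.7 and 287.4 and 48950 and 50570 in WT. The root sum was lowest in the cob-6 libraries, and in whole seedlings fewer cells of a type and less RNA per cell cannot be told apart.

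The promoters of 3 members are shown because they carry what the members share or differ in by sequence. Each is the 250 bases before the RefSeq start of the gene on the TAIR10.1 assembly, read 5′ to 3′ on the gene's own strand. For CYP79B2 and CYP79B3 the capitals mark the longest run of identical bases that these windows share. For SUR1 the capitals mark a G-box (CACGTG) and the W-box cores (TTGAC), searched on both strands.
CYP79B2, chr4:18524792-18525041, plus strand: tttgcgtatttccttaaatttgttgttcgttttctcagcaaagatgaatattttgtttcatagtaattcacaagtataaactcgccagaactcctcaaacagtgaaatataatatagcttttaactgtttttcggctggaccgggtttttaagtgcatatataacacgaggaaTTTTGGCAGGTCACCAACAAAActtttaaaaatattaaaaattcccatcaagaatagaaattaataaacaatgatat
CYP79B3, chr2:9488163-9488412, plus strand: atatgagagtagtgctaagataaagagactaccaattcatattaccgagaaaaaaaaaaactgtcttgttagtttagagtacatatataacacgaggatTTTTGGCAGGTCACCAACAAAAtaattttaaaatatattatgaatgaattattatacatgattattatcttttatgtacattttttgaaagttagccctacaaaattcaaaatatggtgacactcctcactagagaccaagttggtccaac
SUR1, chr2:8880441-8880690, minus strand: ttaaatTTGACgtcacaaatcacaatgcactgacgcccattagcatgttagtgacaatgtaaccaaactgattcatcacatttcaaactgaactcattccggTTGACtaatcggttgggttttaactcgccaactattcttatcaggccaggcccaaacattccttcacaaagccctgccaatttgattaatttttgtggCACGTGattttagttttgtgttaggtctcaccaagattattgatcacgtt
The run shared by the paralogs is 22 bases long. It lies 77 to 56 bases before the RefSeq start of CYP79B2 and 151 to 130 bases before the RefSeq start of CYP79B3. The deposited starts of these genes, 18525246 and 9488554, lie farther downstream, so the distances hold for the RefSeq starts only. Among 27443 promoters of the same length only these 2 hold the run. Over their coding sequences, 1746 and 1701 bases long, CYP79B2 and CYP79B3 were identical at 1369 of 1694 aligned bases (80.8%). The SUR1 window held 1 G-box and 2 W-box cores, the MYB51 and CYP81F2 windows held 2 W-box cores each, and the other 5 windows held none of these letters. A G-box was present in 6.5% and a W-box core in 44.9% of the 27443 promoters, so the G-box is the rarer of these matches. A match describes letters in a window and is not a mapped binding site.

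All reads of the 8 genes were unique to them, except that 42513 of 42514 reads of CYP79B3 were unique in WT replicate 1, so no copy shares their counts. On the deposited per-length scale (RPKM, reads scaled to exon length and library size), the mean level over the 8 libraries was 71.1 for CYP83B1, 61.7 for CYP79B3, 55.8 for SUR1, 43.3 for UGT74B1, 29.9 for CYP79B2, 16.7 for MYB34, 11.4 for MYB51 and 3.68 for CYP81F2. The mean levels of the 5 core enzymes thus stood above those of both transcription factors, and that of the ring-modifying enzyme stood lowest. CYP83B1 (55.2 to 96.7 RPKM), CYP79B3 (49.7 to 73.3) and SUR1 (37.5 to 76.7) overlapped in their ranges over libraries, and UGT74B1 (33.2 to 54.4) overlapped SUR1, CYP79B3 and CYP79B2 (19.3 to 39.6). CYP79B2 in turn overlapped MYB34 (12.9 to 19.9), which overlapped MYB51 (9.75 to 13.1), so neighbours in the order are not separated by their spread down to MYB51. The highest library of a gene was 1.39 times (MYB51) to 2.17 times (CYP79B2) the lowest in CPM, except for CYP81F2, where it was 5.06 times.

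**Figure D1:**
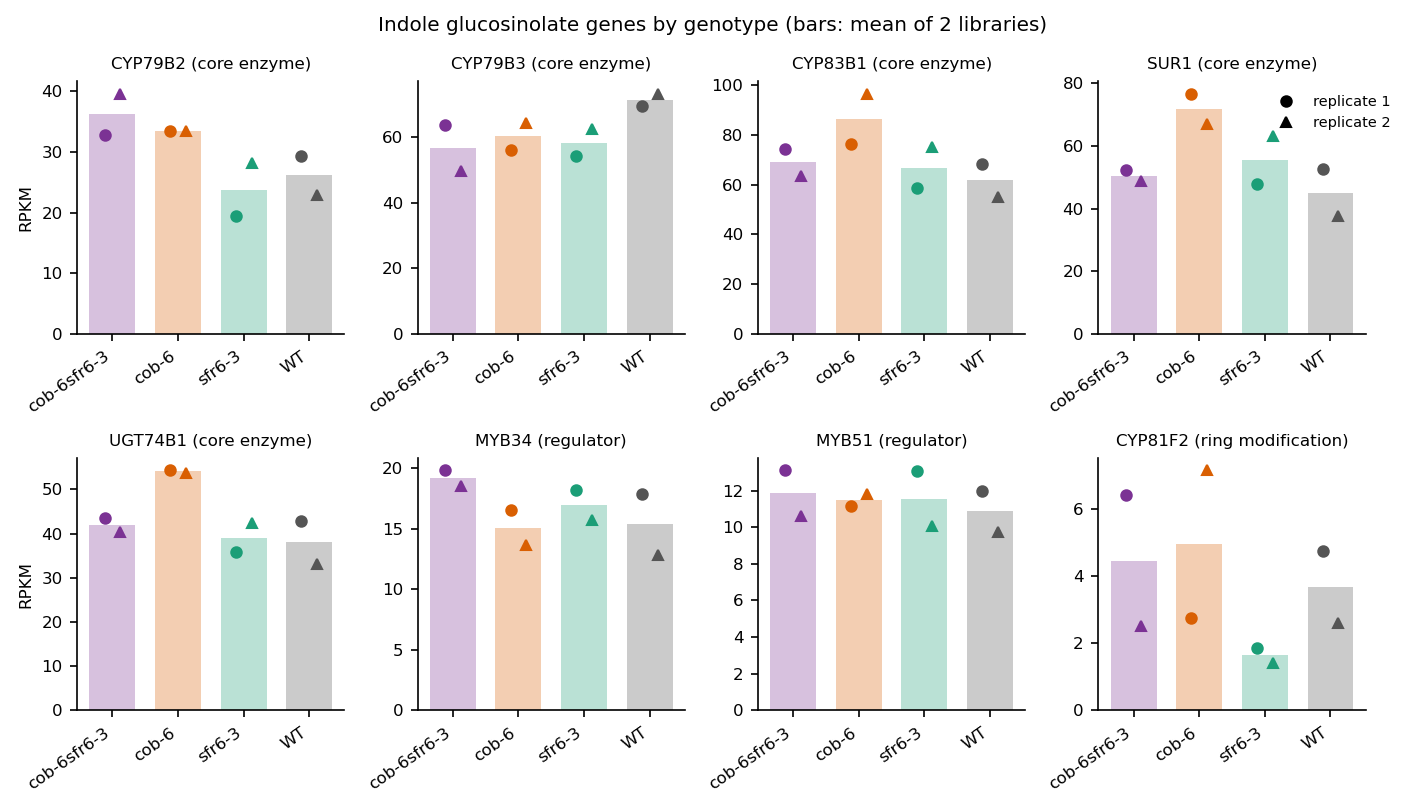
Deposited RPKM (y axis, linear, from 0) of each of the 8 genes in the 4 genotypes (x axis). Bars are the mean of 2 libraries and points are the libraries, and CYP81F2 shows the widest spread, from 1.42 to 7.15 RPKM.

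No gene of the 8 passed an adjusted p of 0.05 in any of 6 contrasts by edgeR's quasi-likelihood test with Benjamini-Hochberg adjustment over all tested genes, and DESeq2 called 0 as well. Of the 48 comparisons of a gene in a contrast, 10 had an unadjusted p below 0.05, where 10.9% of all comparisons of a tested gene in the 6 contrasts did. The smallest adjusted p was 0.183 in edgeR and 0.0508 in DESeq2, both for CYP79B2 in cob-6sfr6-3 against sfr6-3. Without the filter on low counts edgeR called SUR1 in cob-6 against WT (adjusted p = 0.0373), CYP81F2 in sfr6-3 against WT (adjusted p = 0.0224), and CYP79B2 (adjusted p = 0.00659) and CYP81F2 (adjusted p = 0.0027) in cob-6sfr6-3 against sfr6-3, and under the other settings tried no gene of the 8 was called. The intervals, computed back from the test statistic, show the approximate precision. Without CYP81F2, 40 of 42 of the 95% intervals lay within a log2 change of 1 in either direction, and the outermost limits were -1.23 and 1.09.

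**Figure D2:**
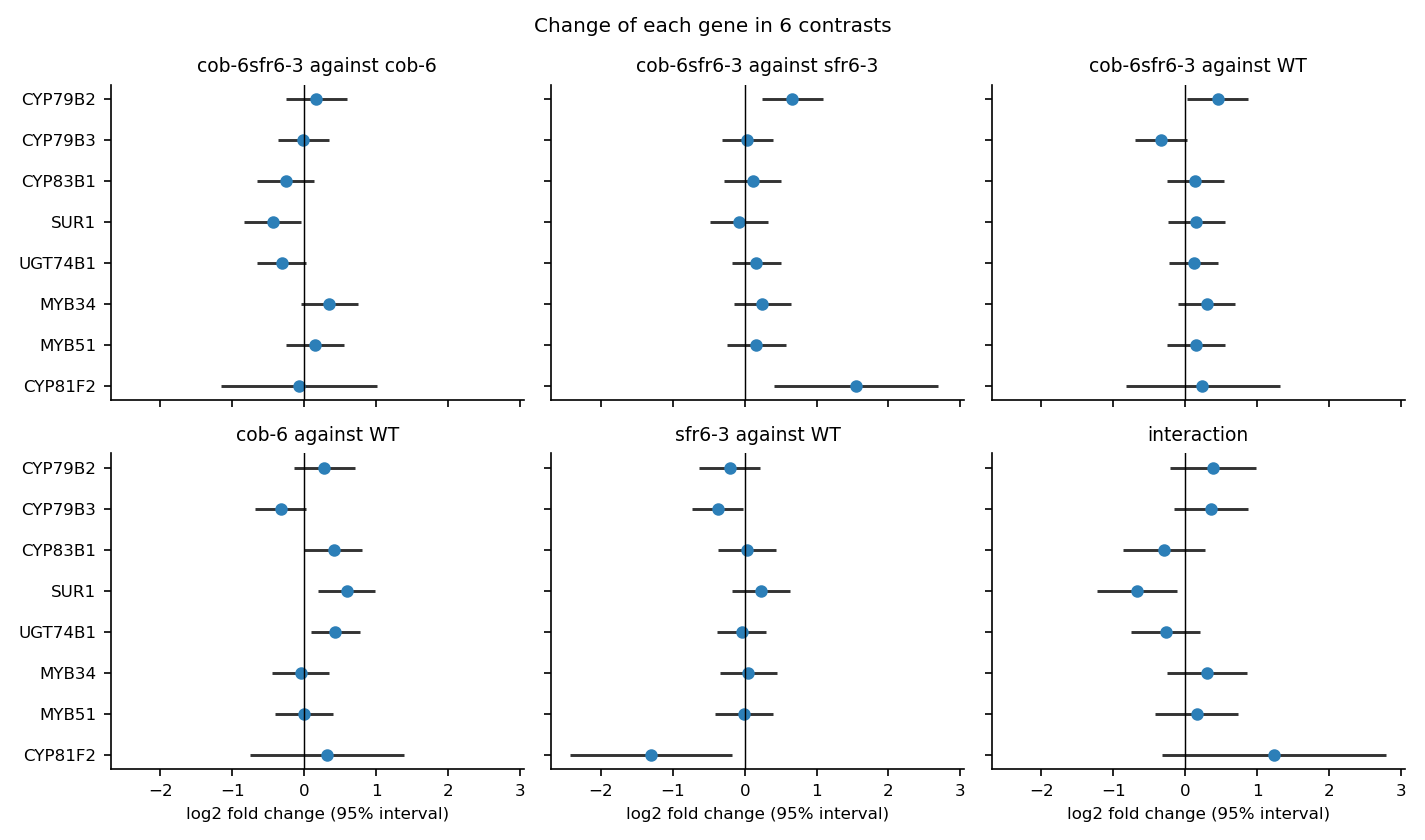
Log2 fold change (x axis) of the 8 genes (y axis) in each contrast, with 95% intervals as bars. Intervals of CYP81F2 are the widest, and the interaction is the change of cob-6sfr6-3 against sfr6-3 less that of cob-6 against WT.

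CYP79B2, which makes the aldoxime (chromosome 4, 18525246 to 18527579), stood at 66.5 and 79.9 CPM in cob-6sfr6-3, 64.5 and 65.5 in cob-6, 36.8 and 55.7 in sfr6-3, and 58.6 and 48.4 in WT. All 4 libraries that carry cob-6 were above all 4 that do not. The share of all tested genes separated in this way was not computed. Nor was the share with a single genotype above or below all others, so such separations, here and in the genes below, are descriptions only. Its log2 change was 0.66 ± 0.19 (SE, 95% interval 0.24 to 1.09) in cob-6sfr6-3 against sfr6-3 (adjusted p = 0.183, edgeR), and 0.45 ± 0.19 in cob-6sfr6-3 against WT (adjusted p = 0.312, edgeR), or 0.60 without WT replicate 1. For cob-6 against WT it was 0.28 ± 0.19 (adjusted p = 0.999, edgeR), or 0.43 without WT replicate 1. None of these passed the threshold, although the direction was the same in each.

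CYP79B3, the paralog with the same reaction (chromosome 2, 9488554 to 9491187), did not follow that order. It stood at 123 and 96.9 CPM in cob-6sfr6-3, 103 and 119 in cob-6, 97.7 and 117 in sfr6-3, and 131 and 147 in WT. The WT libraries were the highest of the 8, and the mutant libraries overlapped each other. Its log2 change against WT was -0.34 ± 0.16 in cob-6sfr6-3 (adjusted p = 0.371), -0.32 ± 0.16 in cob-6 (adjusted p = 0.98) and -0.37 ± 0.16 in sfr6-3 (adjusted p = 0.871), by edgeR. Without WT replicate 1 the values were -0.42, -0.40 and -0.45 in the same order of genotypes.

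The next steps of the core pathway stood highest in cob-6. CYP83B1, which takes the aldoxime into glucosinolate synthesis (chromosome 4, 15273471 to 15275310), had 133 and 114 CPM in cob-6sfr6-3, 129 and 167 in cob-6, 97.7 and 131 in sfr6-3, and 120 and 103 in WT. The cob-6 libraries lay above the WT libraries, but 1 of them lay below the highest double mutant library and 1 sfr6-3 library. The log2 change in cob-6 against WT was 0.41 ± 0.18 (95% interval 0.00 to 0.81, adjusted p = 0.935, edgeR), or 0.52 without WT replicate 1.

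SUR1, the C-S lyase (chromosome 2, 8877960 to 8880388), had 94.0 and 87.6 CPM in cob-6sfr6-3, 130 and 116 in cob-6, 80.5 and 111 in sfr6-3, and 92.7 and 70.2 in WT. The cob-6 libraries were above all 6 others. Its log2 change was -0.44 ± 0.18 in cob-6sfr6-3 against cob-6 (adjusted p = 0.254, edgeR) and 0.59 ± 0.18 in cob-6 against WT (adjusted p = 0.572, edgeR), with 0.81 for cob-6 against WT without WT replicate 1. The interaction was -0.67 ± 0.26 (adjusted p = 0.503, edgeR), and -0.89 without WT replicate 1. In the authors' deposited table of cob-6sfr6-3 against cob-6, SUR1 had a signed fold of -1.36 with p = 0.0403, and SUR1 is the 1 gene of the 8 in the authors' deposited table of 147 genes described as altered in cob-6 but not in cob-6sfr6-3.

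UGT74B1, the glucosyltransferase (chromosome 1, 8525435 to 8527087), had 70.2 and 65.1 CPM in cob-6sfr6-3, 83.6 and 84.5 in cob-6, 54.1 and 66.9 in sfr6-3, and 68.4 and 56.1 in WT. As for SUR1, the cob-6 libraries were above all 6 others, and the other 3 genotypes overlapped. The log2 change was -0.31 ± 0.16 in cob-6sfr6-3 against cob-6 (adjusted p = 0.339, edgeR) and 0.43 ± 0.15 in cob-6 against WT (adjusted p = 0.747, edgeR), with 0.58 for cob-6 against WT when WT replicate 1 was left out.

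The transcription factors were the most even of the 8. MYB34 (chromosome 5, 24494691 to 24496351), an activator of the pathway that ends 14.8 kb before COB on the same chromosome, had 27.9 and 25.9 CPM in cob-6sfr6-3, 23.0 and 19.1 in cob-6, 23.8 and 21.6 in sfr6-3, and 24.8 and 18.7 in WT. The double mutant libraries were above all 6 others by a small margin, and the other genotypes overlapped. The log2 change was 0.35 ± 0.18 in cob-6sfr6-3 against cob-6 (adjusted p = 0.359, edgeR), 0.24 ± 0.18 against sfr6-3 (adjusted p = 0.561, edgeR) and 0.30 ± 0.18 against WT (adjusted p = 0.474, edgeR). The value against WT was 0.53 without WT replicate 1, and ranged from 0.11 to 0.53 as 1 library at a time was left out.

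MYB51 (chromosome 1, 6389411 to 6391267), the other activator, had 23.0 and 18.5 CPM in cob-6sfr6-3, 17.9 and 19.4 in cob-6, 20.6 and 16.5 in sfr6-3, and 20.1 and 17.2 in WT. All 4 genotypes overlapped. Its log2 changes lay between -0.01 and 0.16 over the 6 contrasts, with standard errors of 0.19 in each contrast of 2 genotypes and 0.27 in the interaction.

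CYP81F2 (chromosome 5, 23187840 to 23189857), which hydroxylates the indole ring and is known as a gene induced by attack, was the most variable. It had 11.7 and 4.41 CPM in cob-6sfr6-3, 4.61 and 12.3 in cob-6, 3.04 and 2.43 in sfr6-3, and 8.29 and 5.11 in WT. Both sfr6-3 libraries, with 78 and 65 reads, were below all 6 others, while replicates of cob-6sfr6-3 and of cob-6 differed more from each other than the genotype means did. The log2 change was 1.55 ± 0.52 (95% interval 0.41 to 2.69) in cob-6sfr6-3 against sfr6-3 (adjusted p = 0.226, edgeR) and -1.31 ± 0.52 in sfr6-3 against WT (adjusted p = 0.781, edgeR), with -0.90 for sfr6-3 against WT when WT replicate 1 was left out. As 1 library at a time was left out, the value in cob-6sfr6-3 against sfr6-3 ranged from 0.69 to 2.1.

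Contrast by contrast, the counts over the 8 genes stand beside those over all tested genes as follows. In cob-6sfr6-3 against cob-6, 0 of the 8 passed the adjusted threshold, where 1.36% of all tested genes did, and 1 (SUR1, lower) had an unadjusted p below 0.05, where 16.7% of all did. Without overlap between the libraries, 2 were higher (CYP79B2 and MYB34, against 23.1% of all tested genes) and 2 lower (SUR1 and UGT74B1, against 24.0%). Both shares are near those of all genes. The median log2 change of the 8 was -0.04, against 0.01 over all tested genes.

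In cob-6sfr6-3 against sfr6-3, 0 of the 8 passed the adjusted threshold (0.0748% of all tested genes) and 2 were higher at an unadjusted p below 0.05 (CYP79B2 and CYP81F2, against 14.4% of all in either direction). CYP79B2, MYB34 and CYP81F2 were higher without overlap (21.0% of all). The median was 0.16, against 0.01 over all tested genes. In cob-6sfr6-3 against WT, 0 of the 8 passed (0.846% of all) and CYP79B2 alone had an unadjusted p below 0.05 (14.5% of all). CYP79B2 and MYB34 were higher without overlap (22.3% of all) and CYP79B3 was lower (22.4% of all). The median was 0.15, against 0.02 over all tested genes, and 0.32 without WT replicate 1.

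In cob-6 against WT, 0 of the 8 passed (0.0889% of all tested genes) and 3 were higher at an unadjusted p below 0.05 (CYP83B1, SUR1 and UGT74B1, against 5.26% of all in either direction). The core enzymes CYP79B2, CYP83B1, SUR1 and UGT74B1, were higher without overlap, that is 4 of the 8 where 20.4% of all genes were, and CYP79B3 was lower (20.1% of all). The median was 0.30, against 0.01 over all tested genes, and 0.47 without WT replicate 1. In the same libraries the summed root and green tissue markers were lower in cob-6 than in WT without overlap, and their part in these values was not tested. In sfr6-3 against WT, 0 of the 8 passed (0.131% of all) and 2 were lower at an unadjusted p below 0.05 (CYP79B3 and CYP81F2, against 5.59% of all), the same 2 being lower without overlap (18.9% of all). The median was -0.03, against 0.00 over all tested genes, and 0.11 without WT replicate 1. In the interaction, 0 of the 8 passed (0.0514% of all) and SUR1 alone had an unadjusted p below 0.05 (9.08% of all). The contrasts with WT share its 2 libraries and are not independent of each other.

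The 5 core enzymes were also averaged after centring each on its own mean log2 CPM. That profile was 0.08 and -0.02 in cob-6sfr6-3, 0.16 and 0.25 in cob-6, -0.36 and 0.05 in sfr6-3, and 0.03 and -0.18 in WT. It was highest in both cob-6 libraries, and the distance between the sfr6-3 replicates was larger than that between any 2 genotype means. UGT74B1 followed the profile most closely, with a root mean square difference of 0.073 on the log2 scale, then CYP83B1 (0.091), SUR1 (0.167), CYP79B2 (0.211) and CYP79B3 (0.255), and a flat profile gave 0.181, so the CYP79B paralogs lay farther from the mean profile than no change did. MYB34 (0.268), MYB51 (0.235) and CYP81F2 (0.718), which are not in that mean, lay farther still than a flat profile. Among the other tested genes, PTAC17 (0.042), CCR4-2 (0.05), ASE2 (0.054), OTP86 (0.058) and PPC2 (0.06) had the profiles most like the mean over the 8 libraries. PTAC17, OTP86 and CCR4-2 were again among the nearest 5 over 7 libraries without WT replicate 1.

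The ratio of the paralogs was computed as well. The ratio of CYP79B2 to CYP79B3 in RPKM was 0.514 and 0.797 in cob-6sfr6-3, 0.596 and 0.518 in cob-6, 0.356 and 0.452 in sfr6-3, and 0.423 and 0.313 in WT. The 4 libraries that carry cob-6 were above the other 4 without overlap. The log2 ratio was 0.64 higher in them, with p = 0.0286 in a two-sided exact permutation test, the smallest value that 4 against 4 can give. This ratio was chosen after its values were seen, as 1 of 28 pairs among the 8 genes. A pair whose libraries separate fully always gives the smallest p, so the p-values of such pairs are descriptions only. The test also treats the 4 libraries of each side as interchangeable, although each side mixes genotypes. It counts WT replicate 1, which cannot be taken as independent of the other libraries. Its p adjusted over the 28 pairs by Benjamini-Hochberg was 0.4 (exact permutation test). With 0.0286 as the smallest p, 1 or a few separated pairs could not pass after this adjustment, so the adjusted value cannot decide. The ratio of CYP79B3 to UGT74B1 also separated these libraries (log2 difference -0.46, exact permutation p = 0.0286, adjusted 0.4). Without WT replicate 1 the CYP79B2 to CYP79B3 difference was 0.69, with an exact permutation p = 0.0571, the smallest value that 4 against 3 can give.

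**Figure D3:**
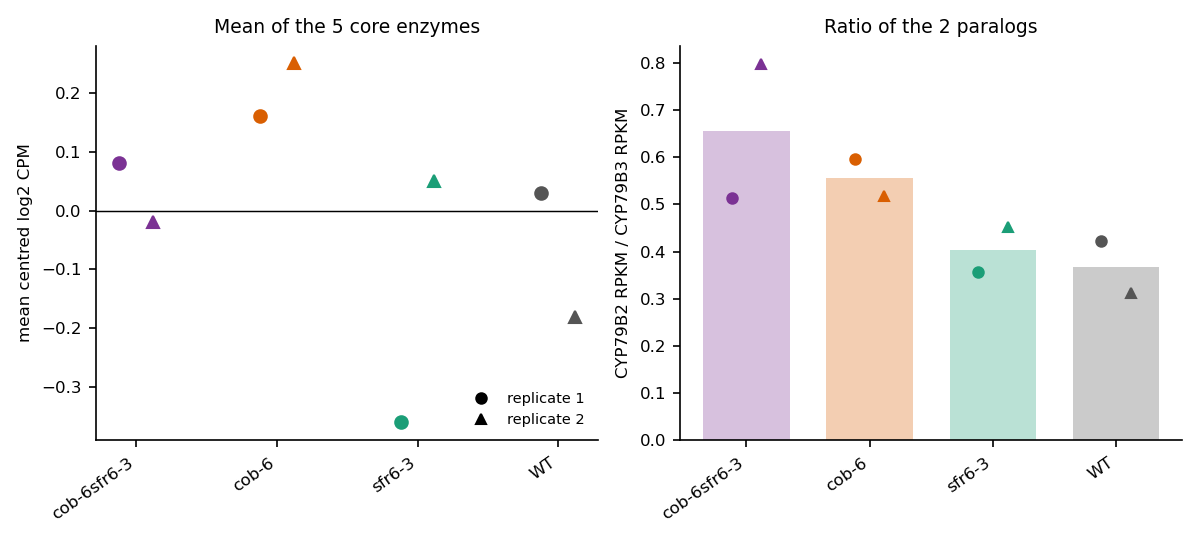
Left, mean centred log2 CPM of the 5 core enzymes (y axis) in each library by genotype. Right, ratio of CYP79B2 to CYP79B3 in RPKM (y axis, from 0), with bars for the mean of 2 libraries; all 4 points of the genotypes that carry cob-6 lie at 0.514 or above and all others at 0.452 or below.

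The neighbours of the pathway were read from 7 lists, the first being indole ring modification, the steps that CYP81F2 belongs to. In that list of 8 other genes, 3 fell in cob-6sfr6-3 against WT (IGMT1, IGMT3 and CYP81F4, where 0.846% of all tested genes were called) at a list median of -0.31. DESeq2 called these 3 and also CYP81F3, which was higher. In cob-6sfr6-3 against cob-6, 1 fell (IGMT1, where 1.36% of all were called) at a median of -0.47, and DESeq2 called 3, all lower (IGMT1, IGMT3 and IGMT4). In sfr6-3 against WT, 0 passed by edgeR and 2 by DESeq2, with 6 of the 8 lower at an unadjusted p below 0.05 (5.59% of all in either direction) and a median of -0.76. Without WT replicate 1, edgeR called 3 lower and 1 higher in cob-6sfr6-3 against WT (median -0.42), 3 lower in sfr6-3 against WT (median -0.97) and 0 in cob-6 against WT (median 0.05). With all 8 libraries the medians over all tested genes were 0.02 in cob-6sfr6-3 against WT, 0.01 in cob-6sfr6-3 against cob-6 and 0.00 in sfr6-3 against WT. Without WT replicate 1 they were 0.031 in cob-6sfr6-3 against WT, 0.011 in sfr6-3 against WT and 0.02 in cob-6 against WT. In cob-6 against WT, 0 passed in either tool, 1 was lower at an unadjusted p below 0.05 (5.26% of all), and the median was 0.09. Single root markers moved in the same contrasts: TIP2;3 (-4.72 ± 0.61, adjusted p = 0.00527, edgeR) and AGP30 (-2.45 ± 0.39, adjusted p = 0.0136, edgeR) fell in cob-6sfr6-3 against WT, and PHT1;1 rose in cob-6sfr6-3 against cob-6 (0.88 ± 0.18, adjusted p = 0.0392, edgeR). AGP30 also fell in cob-6 against WT (-2.58 ± 0.40, adjusted p = 0.0354, edgeR). The other root markers and all green tissue markers did not pass in these contrasts by edgeR. DESeq2 called 2 root and 3 green tissue markers in cob-6sfr6-3 against cob-6, 3 and 2 in cob-6 against WT, and 2 and 0 in cob-6sfr6-3 against WT. Over all genes it called 985 of 22049, 131 of 18001 and 720 of 22049 in these contrasts, in the same order. In sfr6-3 against WT it called 176 of 21543. The part of the markers in the ring modification values was not tested.

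IGMT1, a methyltransferase that acts on the hydroxylated indole ring, had 8.75 and 8.99 CPM in cob-6sfr6-3, 31.7 and 41.2 in cob-6, 21.5 and 7.97 in sfr6-3, and 34.7 and 74.0 in WT. The double mutant libraries were below those of cob-6 and WT, while 1 sfr6-3 library was as low and the other was not. The log2 change was -2.04 ± 0.41 in cob-6sfr6-3 against cob-6 (adjusted p = 0.0367, edgeR) and -2.61 ± 0.42 in cob-6sfr6-3 against WT (adjusted p = 0.0138, edgeR), or -3.06 without WT replicate 1 (adjusted p = 0.000465, edgeR). The call against cob-6 was lost when any 1 library of either genotype was left out (adjusted p from 0.0619 to 0.193, edgeR), and the call against WT was lost without double mutant replicate 1 (0.0577) or replicate 2 (0.103). In the authors' deposited table of cob-6sfr6-3 against cob-6, IGMT1 had a signed fold of -4.04 with p = 1.5e-05. Of its reads 91.4% were unique, and unique reads alone gave -2.06 ± 0.39 against cob-6 (adjusted p = 0.0213, edgeR).

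IGMT3, a near-identical copy with 64.8% unique reads and therefore less certain, had 3.19 and 6.81 CPM in cob-6sfr6-3, 10.6 and 14.1 in cob-6, 5.78 and 5.31 in sfr6-3, and 12.8 and 22.6 in WT. Both genotypes that carry sfr6-3 were below both that do not. The log2 change in cob-6sfr6-3 against WT was -1.80 ± 0.36 (adjusted p = 0.0429, edgeR), and with 1 library left out the call was kept only without WT replicate 1 (-2.16, adjusted p = 0.00502) or without double mutant replicate 2 (-2.46, adjusted p = 0.0371), the largest adjusted p being 0.319 without WT replicate 2. CYP81F4, which hydroxylates the ring nitrogen, gave -1.23 ± 0.25 in cob-6sfr6-3 against WT (adjusted p = 0.0435, edgeR), but only 1.23% of its reads were unique, and its unique reads gave -0.43 ± 0.85 (adjusted p = 0.852). Another annotated gene of the deposited table, AT4G37409, overlaps it. The CYP81F4 call was lost in 7 of 8 fits with 1 library left out (adjusted p from 0.0549 to 0.312), with -0.77 without WT replicate 2, and was kept without WT replicate 1 (-1.58, adjusted p = 0.000909). CYP81F3 had 12.4 and 14.6 CPM in cob-6sfr6-3, 7.30 and 7.18 in cob-6, 7.34 and 4.12 in sfr6-3, and 6.60 and 3.08 in WT, which was higher in the double mutant without overlap. It did not pass in edgeR (1.44 ± 0.36 in cob-6sfr6-3 against WT, adjusted p = 0.0959), but did in DESeq2 (adjusted p = 0.00657) and in edgeR without WT replicate 1 (2.13 ± 0.42, adjusted p = 0.0118). It was named after its values were seen.

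**Figure D4:**
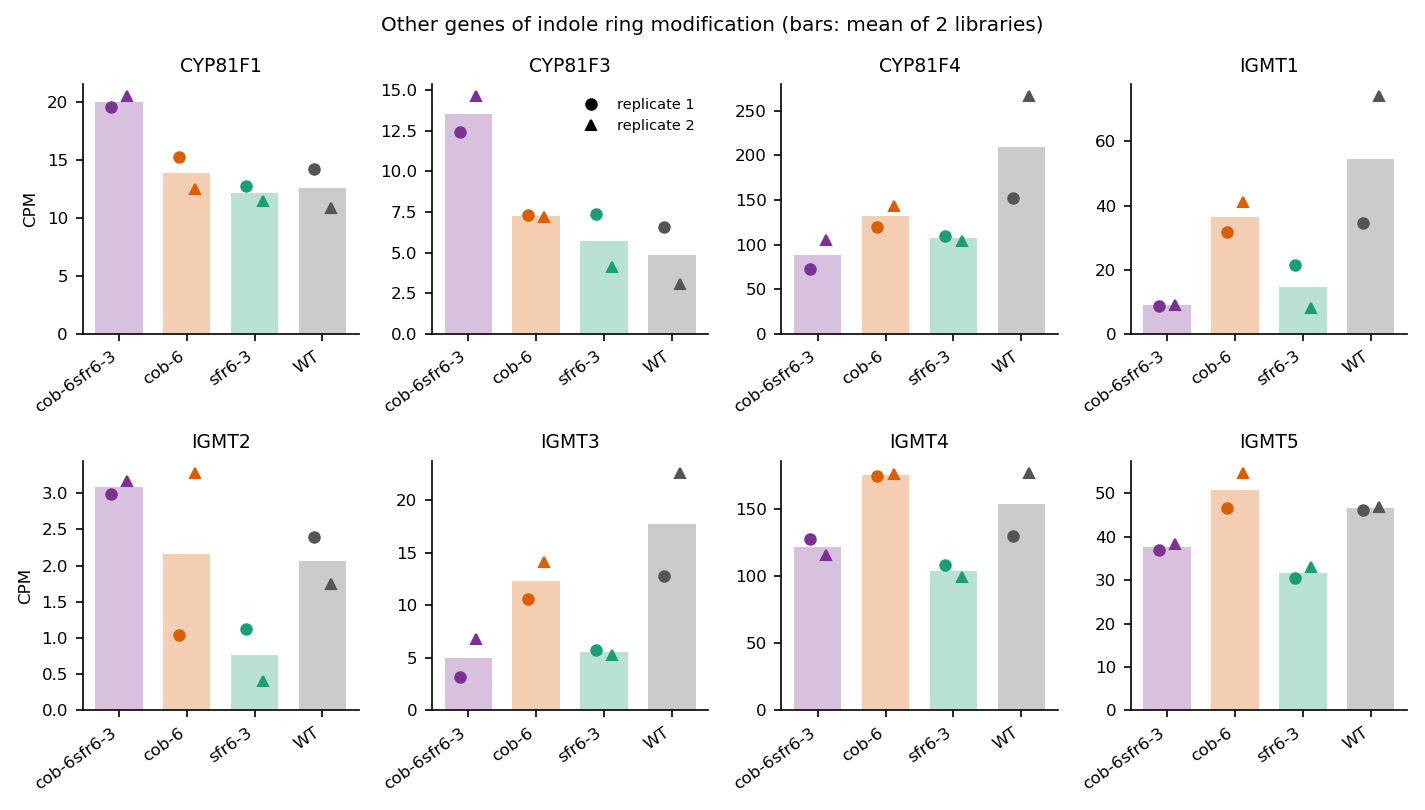
CPM (y axis, linear, from 0) of the 8 other genes of indole ring modification in the 4 genotypes (x axis), with bars for the mean of 2 libraries and points for the libraries. IGMT1 lies at 8.75 and 8.99 in cob-6sfr6-3, against 31.7 and 41.2 in cob-6.

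Of 9 genes of transport and activation, 1 fell in cob-6sfr6-3 against cob-6 by edgeR (where 1.36% of all tested genes were called) and 0 passed in the other contrasts. Over the 6 contrasts DESeq2 made 6 calls. Over all genes it called from 84 of 22049 (interaction) to 985 of 22049 (cob-6sfr6-3 against cob-6) in a contrast. Of 54 comparisons, 14 had an unadjusted p below 0.05, beside 10.9% of all comparisons of tested genes. The gene called by edgeR was BGLU21, a beta-glucosidase closely related to the root enzyme PYK10, with 113 and 134 CPM in cob-6sfr6-3, 219 and 196 in cob-6, 167 and 128 in sfr6-3, and 135 and 130 in WT. Its log2 change was -0.74 ± 0.16 (adjusted p = 0.0489, edgeR), and the call was lost without any 1 library of cob-6 or cob-6sfr6-3 (adjusted p from 0.0836 to 0.333) and with another scaling, by relative log expression (0.0504). PEN3, the transporter that exports products of the pathway at sites of attack, had 741 and 693 CPM in cob-6sfr6-3, 688 and 678 in cob-6, 469 and 437 in sfr6-3, and 577 and 539 in WT. The sfr6-3 libraries were lowest, and cob-6sfr6-3 against sfr6-3 gave 0.66 ± 0.14 (adjusted p = 0.0973 in edgeR and 7.89e-05 in DESeq2).

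Upstream, 0 of 13 genes of tryptophan synthesis passed in any contrast by edgeR, and 17 of 78 comparisons had an unadjusted p below 0.05 (10.9% of all). DESeq2 called 1 in cob-6sfr6-3 against cob-6 (PAI2, -1.42 ± 0.32 and adjusted p = 0.056 in edgeR, with 43.3% unique reads) and 1 in cob-6sfr6-3 against sfr6-3 (TSB1, a subunit of tryptophan synthase, 0.56 ± 0.16 and adjusted p = 0.185 in edgeR). Over all genes it called 985 and 464 of 22049 in these contrasts. The list had 4 genes higher at an unadjusted p below 0.05 in cob-6 against WT (5.26% of all), at a median of 0.24, or 0.36 without WT replicate 1. IGPS, indole-3-glycerol phosphate synthase, had 0.56 ± 0.16 there (adjusted p = 0.521, edgeR). Of 11 genes of the glutathione and sulfation steps, 0 passed in any contrast by either tool (11 of 66 comparisons at an unadjusted p below 0.05, 10.9% of all). In cob-6 against WT 4 were higher at an unadjusted p below 0.05 (5.26% of all), at a median of 0.36, or 0.58 without WT replicate 1. Among them, the glutathione transferase GSTF10 had 0.56 ± 0.16 (adjusted p = 0.535, edgeR) and the sulfotransferase SOT18 had 0.63 ± 0.21 (adjusted p = 0.643, edgeR). The sulfotransferase SOT16 stood at 79.3 and 74.4 CPM in cob-6sfr6-3, 63.4 and 71.2 in cob-6, 47.9 and 59.1 in sfr6-3, and 60.0 and 44.9 in WT. Like CYP79B2, its libraries that carry cob-6 were above all others, a separation whose share over all tested genes was not computed.

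Of 9 other regulators 0 passed in any contrast by either tool, with 7 of 54 comparisons at an unadjusted p below 0.05 (10.9% of all). WRKY33, a defence regulator, had 15.7 and 14.2 CPM in cob-6sfr6-3, 17.7 and 21.6 in cob-6, 14.3 and 11.8 in sfr6-3, and 19.8 and 20.1 in WT, with -0.61 ± 0.18 in sfr6-3 against WT (adjusted p = 0.472, edgeR), or -0.62 without WT replicate 1. ERF6, an ethylene response factor, had 0.70 ± 0.28 in cob-6sfr6-3 against sfr6-3 (adjusted p = 0.292, edgeR). MYB122, the third activator of the indole pathway, was barely read, at 0 and 0.0269 CPM in cob-6sfr6-3, 0.192 and 0.492 in cob-6, 0.078 and 0.636 in sfr6-3, and 0.371 and 0.527 in WT, too few reads for a fold. Of 9 genes for other uses of indole-3-acetaldoxime 7 could be tested, and 0 passed in any contrast by either tool, with 3 of 42 comparisons at an unadjusted p below 0.05 (10.9% of all). Of these genes, the nitrilase NIT2 had 0.67 ± 0.24 in cob-6sfr6-3 against sfr6-3 (adjusted p = 0.251, edgeR), the nitrilase NIT3 had 0.72 ± 0.27 in cob-6sfr6-3 against WT (adjusted p = 0.26, edgeR) and the amidase AMI1 had -0.35 ± 0.14 in sfr6-3 against WT (adjusted p = 0.811, edgeR).

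In aliphatic glucosinolate synthesis, the methionine-derived sister pathway, 1 of 14 genes fell in cob-6sfr6-3 against cob-6 by edgeR, where 1.36% of all tested genes were called. DESeq2 called 2, where it called 985 of 22049 genes in all. The list median was -0.34, against 0.01 over all tested genes. The gene called by edgeR was MAM3, a chain-elongation enzyme, with 46.0 and 55.4 CPM in cob-6sfr6-3, 84.7 and 110 in cob-6, 28.0 and 31.5 in sfr6-3, and 50.2 and 37.8 in WT. Its log2 change was -0.94 ± 0.19 (adjusted p = 0.0325, edgeR), and the call was lost without any 1 library of either genotype (adjusted p from 0.0612 to 0.276). In cob-6 against WT the median of this list was 0.67, beside 0.30 for the 8 indole genes, and 14 of its 14 genes had a positive log2 change, 7 of them with an unadjusted p below 0.05 (5.26% of all in either direction). There 0 passed by edgeR and 1 by DESeq2, MAM3 (1.14 ± 0.19, adjusted p = 0.0508 in edgeR and 6.07e-06 in DESeq2). Over all genes, edgeR called 0.0889% and DESeq2 131 of 18001 in that contrast. MAM3 passed in edgeR with unique reads (adjusted p = 0.0325), with the other 7 libraries taken off WT replicate 1 (0.00414) and with no filter on low counts (6.62e-08). It did not pass in edgeR with relative log expression scaling (adjusted p = 0.051), exon reads (0.0524) or a replicate block (0.0786). Its log2 change was 1.36 without WT replicate 1 and 0.95 without WT replicate 2. Without cob-6 replicate 1 it was 1.32, and without cob-6 replicate 2 it was 0.94. Without WT replicate 1 edgeR called 2 genes of the list in cob-6 against WT, both higher (MAM3 and CYP79F2), at a median of 0.91. The difference between the sister pathways was not tested.

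**Figure D5:**
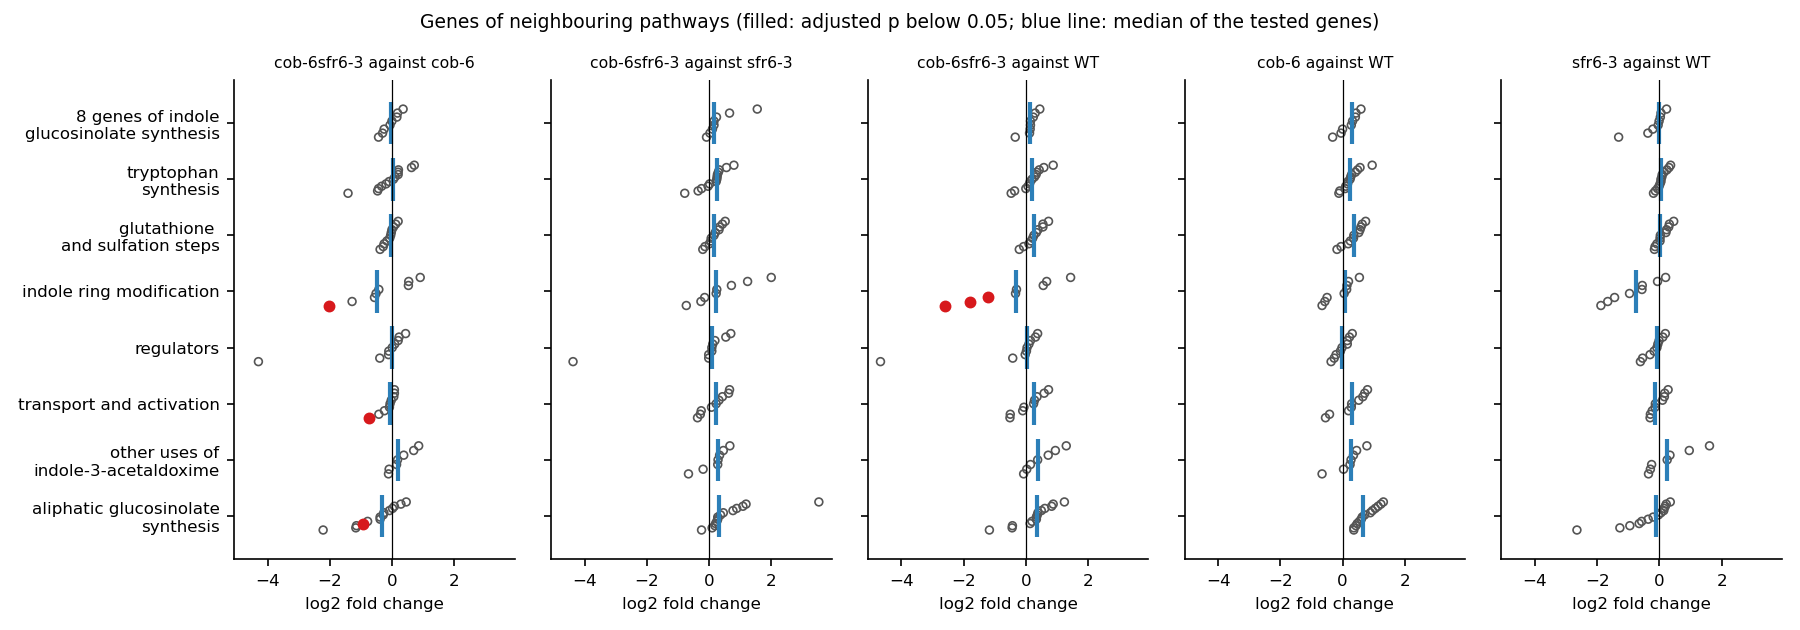
Log2 fold change (x axis) of every tested gene of the 8 indole genes and the 7 neighbouring lists (y axis) in 5 contrasts. Filled points passed an adjusted p of 0.05 in edgeR and blue lines are list medians; the filled points are IGMT1, BGLU21 and MAM3 in cob-6sfr6-3 against cob-6 and IGMT1, IGMT3 and CYP81F4 in cob-6sfr6-3 against WT.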

How the data were processed

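The authors deposited whole-number counts of reads per gene for each library (all gene reads, those unique to the gene, and those in exons or in introns) and RPKM values, per the file headers. The authors also deposited a signed fold (treated as a score) and its p-value from an EDGE test of the double mutant against cob-6, per the file headers. Aligner, counting program, strand setting and build are each not given in the sources used here. With deposited starts read as 0-based, 10599 of 32823 matched genes had the same start and end as in the TAIR10.1 annotation of RefSeq, so promoters were read from that assembly with Biopython 1.88, at RefSeq starts, and positions of genes come from the deposited table, with 1 added to the start.

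Total gene reads of all 8 libraries were fitted with edgeR 4.0.16 (R 4.3.3), with TMM scaling, the filterByExpr filter, a mean for each genotype and the quasi-likelihood test in 6 contrasts. The p-values were adjusted by the Benjamini-Hochberg method over all tested genes of a contrast, with a call at 0.05. CPM are these reads scaled by TMM. Standard errors in edgeR were not taken from the fit. Each is the absolute log2 fold change divided by the square root of the F statistic of the quasi-likelihood test. The 95% intervals were built from these, so both are approximate, and least reliable where the change is near 0. With 2 libraries in each genotype, a permutation test of a single gene between 2 genotypes could not go below 33.3%, so none was made. DESeq2 1.42.0, no filter on low counts, RLE scaling, unique reads, exon reads, a replicate block, the other 7 libraries taken off WT replicate 1, and leaving out each library were the other settings.

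The 8 members, the 7 neighbouring lists and the markers were chosen with earlier results of these data known, so no list was given a test. Named genes are the 8 members, COB and MED16, genes of a list that passed the test in a contrast or else its 3 with the smallest p, and the 5 genes nearest in profile. Others (CYP81F3, IGMT4, PEN3, CYP79F2, BGLU22, BGLU23, CYP71A12, CYP71A13, CYP71B15, CYP82C2 and single root markers) were named after their values were seen. Protein sequences were not used here.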

Additional observations from a re-analysis of the deposited data

How the results depend on the processing

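The 8 genes were recomputed in 15 other settings, which gave 720 values. Of these, 679 kept their direction and their side of the threshold, 37 reversed and 4 passed the threshold, all 4 without the filter on low counts: SUR1 in cob-6 against WT (0.58 ± 0.16, adjusted p = 0.0373, edgeR), CYP81F2 in sfr6-3 against WT (-1.32 ± 0.36, adjusted p = 0.0224), and CYP79B2 (0.66 ± 0.17, adjusted p = 0.00659) and CYP81F2 (1.55 ± 0.36, adjusted p = 0.0027) in cob-6sfr6-3 against sfr6-3. That setting therefore called 1, 1 and 2 of the 8 genes in these contrasts, while 0 were called in the others and under every other setting. Reversals outside the left-out libraries were MYB51 in cob-6 against WT under the replicate block (0.01) and, with the other 7 libraries taken off WT replicate 1, CYP81F2 in cob-6 against WT (-0.02) and in cob-6sfr6-3 against WT (-0.09) and MYB34 in sfr6-3 against WT (-0.05). The cause of these changes was not tested.

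Leaving out 1 library at a time reversed the other 33 values, and the log2 changes then ranged as follows. In cob-6sfr6-3 against cob-6 they were CYP79B3 -0.20 to 0.15, MYB51 -0.01 to 0.30 and CYP81F2 -0.94 to 0.80. In cob-6sfr6-3 against sfr6-3 they were CYP79B3 -0.15 to 0.20, CYP83B1 -0.09 to 0.32, SUR1 -0.29 to 0.16 and MYB51 -0.01 to 0.32. In cob-6sfr6-3 against WT they were SUR1 -0.03 to 0.37, UGT74B1 -0.02 to 0.27, MYB51 -0.02 to 0.30 and CYP81F2 -0.62 to 0.79. In cob-6 against WT they were MYB34 -0.24 to 0.17, MYB51 -0.11 to 0.12 and CYP81F2 -0.55 to 0.86. In sfr6-3 against WT they were CYP79B2 -0.54 to 0.05, CYP83B1 -0.19 to 0.23, SUR1 -0.01 to 0.45, UGT74B1 -0.20 to 0.11, MYB34 -0.13 to 0.28 and MYB51 -0.18 to 0.15. In the interaction they were MYB51 -0.00136 to 0.33.

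Counts over all genes moved more. In the order cob-6sfr6-3 against cob-6, against sfr6-3 and against WT, cob-6 against WT, sfr6-3 against WT and interaction, edgeR called 291, 16, 181, 19, 28 and 11 genes. DESeq2 called 985, 464, 720, 131, 176 and 84, and no filter on low counts gave 1314, 833, 1185, 356, 408 and 224. Unique reads moved cob-6sfr6-3 against sfr6-3 to 48 and the interaction to 4. With the other 7 libraries taken off WT replicate 1, the counts were 95 in cob-6sfr6-3 against sfr6-3, 748 against WT, 88 in cob-6 against WT, 151 in sfr6-3 against WT and 5 in the interaction. Leaving out 1 library gave 68 to 933, 3 to 450, 75 to 767, 0 to 138, 3 to 168 and 4 to 31. Same-numbered libraries did not deviate together (correlations of -0.07 to 0.05 over 6 pairs of genotypes, 0 of them over 0.1), so no shared effect of the replicate number was seen. These values cannot show whether same-numbered libraries were prepared together, and the pairs with WT rest on WT replicate 1. With the replicate block the counts were 216, 13, 176, 21, 33 and 8, with 0 of the 8 genes called, and IGMT1 in cob-6sfr6-3 against cob-6 had an adjusted p of 0.0507 (edgeR). The CYP79B2 to CYP79B3 ratio gave 0.64 with unique reads, a setting added after its values were seen. Depth limits CYP81F2 most, with 65 to 302 reads in the 7 libraries other than WT replicate 1.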

Other observations

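The branch from indole-3-acetaldoxime to camalexin was low in all 4 genotypes. CYP71A13, which draws on the aldoxime, had 3.96 and 1.18 CPM in cob-6sfr6-3, 1.42 and 3.12 in cob-6, 4.96 and 3.10 in sfr6-3, and 2.13 and 0.325 in WT. Of the genotypes, sfr6-3 and WT did not overlap (log2 change 1.61 ± 0.76, adjusted p = 0.92, edgeR), and the others did. The share of all tested genes higher without overlap in sfr6-3 against WT is not given here. Without WT replicate 1 the log2 change was 3.62, with WT then resting on the library at 0.325 CPM. CYP71B15 (PAD3), the last enzyme of that branch, had 4.31 and 7.40 CPM in cob-6sfr6-3, 2.61 and 4.68 in cob-6, 4.57 and 5.13 in sfr6-3, and 5.14 and 6.45 in WT. Both single mutants lay below WT without overlap, sfr6-3 only by 5.13 against 5.14 in WT replicate 1. Of all tested genes, 20.1% were lower without overlap in cob-6 against WT and 18.9% in sfr6-3 against WT. The log2 changes of CYP71B15 were -0.66 ± 0.37 (adjusted p = 0.999, edgeR) and -0.25 ± 0.37 (adjusted p = 0.997, edgeR). CYP71A12 and CYP82C2 had too few reads to be tested. These genes were named after their values were seen.

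The beta-glucosidase BGLU23 (PYK10), an abundant enzyme of root endoplasmic reticulum bodies, had 2210 and 2220 CPM in cob-6sfr6-3, 2490 and 2240 in cob-6, 2350 and 3020 in sfr6-3, and 2710 and 3600 in WT, while its relative BGLU22 had 129 and 183 CPM in cob-6sfr6-3, 165 and 161 in cob-6, 99.8 and 101 in sfr6-3, and 110 and 77.3 in WT. BGLU22 was higher in each library that carries cob-6 than in each that does not, a separation whose share over all tested genes was not computed. With all 8 libraries 0 contrasts passed for either gene by edgeR, while DESeq2 called BGLU22 in cob-6sfr6-3 against WT (adjusted p = 0.00846) and in cob-6 against WT (adjusted p = 0.00954). The log2 change of BGLU22 in cob-6 against WT was 0.80 ± 0.19 by edgeR, or 1.08 without WT replicate 1. Without that library it was 1.01 in cob-6sfr6-3 against WT.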
